A study of Mus musculus with 6 samples.

Results

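A group of 10 genes of the Sonic hedgehog (SHH) pathway was followed in sorted cells of the cortical interneuron (cIN) lineage of the mouse embryo, from the ligand through its receptors to the Gli transcription factors. The set held the ligand Shh, the receptor Ptch1, the transducer Smo, the factors Gli1, Gli2 and Gli3, and the modulators Hhip, Sufu, Gas1 and Boc, in a table of 29606 loci. They were picked by name, and the set was proposed because Shh was higher in CCP1 cKO cells in these same data. The difference in Shh between genotypes is therefore given as a description without a test, and likewise that of the other 9 genes. All 10 genes were found, and 8 of them averaged at least 1 FPKM over the libraries.

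SHH is a secreted morphogen that binds PTCH1 and thereby relieves the block of PTCH1 on SMO, a membrane protein that acts in the primary cilium. Active SMO frees the GLI factors from SUFU, so that GLI2 and GLI1 activate targets and less GLI3 is cut into a repressor. In the ventral forebrain this pathway sets up the medial ganglionic eminence (MGE), where it maintains NKX2-1 in the progenitors of many cINs, and MGE neurons themselves are a known source of the ligand.

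Both genotypes carried the Dlx5,6 CRE GFP transgene and were taken at E13.5, with the strain labelled as MF1. The 3 CCP1 cKO libraries came from CCP1 lox/lox embryos and the 3 WT libraries from CCP1 Wt/Wt embryos. CCP1, encoded by Agtpbp1, is a carboxypeptidase that shortens glutamate chains on proteins, and its exons between loxP sites are removed where Dlx5/6 drives Cre, that is in the GABAergic lineage of the ganglionic eminences (GEs). Cells were dissociated from the GEs and sorted for GFP, so the measured RNA comes from a mixed pool of that lineage, and progenitors that had not yet switched on Dlx5/6 lie outside the gate. RNA depleted of ribosomal RNA was sequenced, and the level of each gene was given as FPKM, a number of fragments scaled to transcript length and to the fragments of the library, which allows genes of different length to be compared. Nothing in the labels says whether a library is 1 embryo or a pool, and the spread between libraries is the only error given here.

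Agtpbp1 had 9.68, 10.1 and 9.56 FPKM in CCP1 cKO libraries 1, 2 and 3, against 20.0, 18.9 and 18.1 FPKM in WT libraries 1, 2 and 3, and the genotypes did not overlap. Of 13200 loci that averaged at least 1 FPKM, 12 differed between genotypes in limma on log2(FPKM + 1) at an adjusted p of 0.05, which is 0.0909% of the loci (0.0606% with CCP1 cKO higher and 0.0303% lower). Without CCP1 cKO replicate 3 the number was 4, and it was 1 among loci that carry a single gene name. The median difference over all loci was -0.02 on the log2 scale. The relative depth of the libraries, read from the steps between low values, was 0.99 to 1.10 in CCP1 cKO and 0.73 to 1.14 in WT, and the absolute depth is unknown. The sorted cells had the marks of the MGE lineage, with Lhx6 at a mean of 100.4 FPKM over the 6 libraries, and the pan-GABAergic factor Dlx2 had a mean of 172.7 FPKM. The pool was not of interneurons alone by these markers, as the radial glia gene Vim, the cell cycle gene Top2a and Bcl11b of striatal projection neurons averaged 173.3, 149.7 and 82.7 FPKM. Markers of cells that the sort should remove were uneven. None of 8 endothelial, 6 pericyte and 11 microglial genes reached a mean of 1 FPKM, but the red blood cell gene Hbb-y averaged 11.6 FPKM and the cortical excitatory gene Neurod6 6.94 FPKM, both above Shh. The 10 cortical excitatory genes summed to 16.3 to 33.2 FPKM in CCP1 cKO libraries, against 10.4 to 43.5 FPKM in WT libraries, and the part of such cells in the hedgehog values was not tested.

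Shh RNA was present in the sorted pool and was higher in CCP1 cKO. The gene had 6.07, 4.55 and 7.60 FPKM in CCP1 cKO libraries 1, 2 and 3, against 4.30, 3.17 and 3.42 FPKM in WT libraries 1, 2 and 3. The genotypes did not overlap, but the gap between them was narrow, as the lowest CCP1 cKO library (replicate 2) lay just above the highest WT library (replicate 1). CCP1 cKO libraries averaged 6.07 ± 1.53 FPKM, against 3.63 ± 0.593 FPKM for the WT libraries (SD, n = 3 each), a ratio of 1.67. On the scale of log2(FPKM + 1), which understates changes of genes with few FPKM, the difference was 0.59 with a standard error of 0.21. CCP1 cKO replicate 3 was the highest of all libraries, and leaving out 1 library at a time gave differences between 0.44 and 0.76. In a bulk sample, a difference of this kind cannot be told apart between more cells that transcribe Shh and more Shh RNA per cell.

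**Figure D1:**
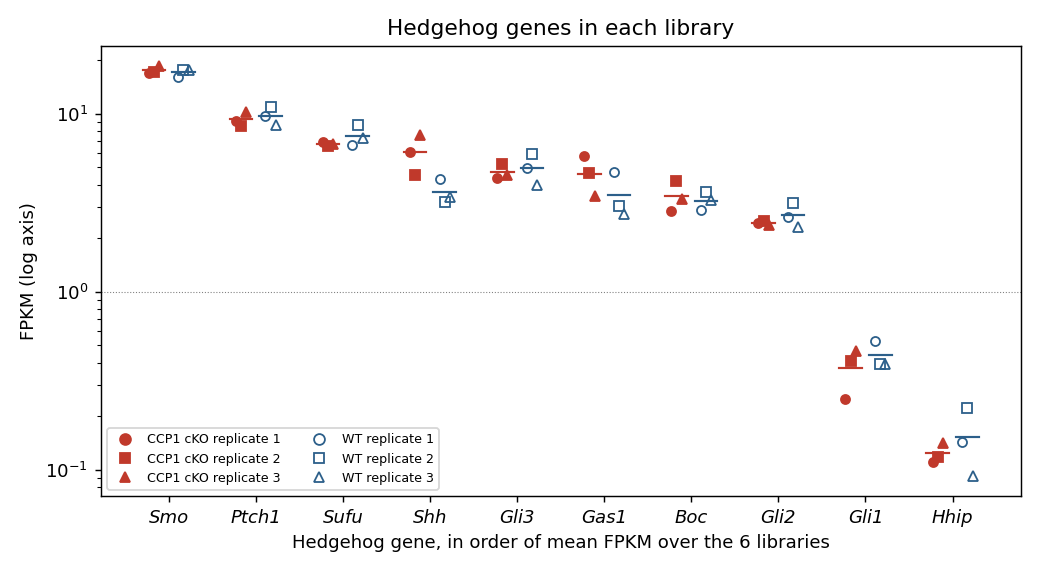
FPKM of the 10 hedgehog genes in each library on a log axis, ordered by their mean over the 6 libraries, with filled red symbols for CCP1 cKO, open blue symbols for WT and a bar at each genotype's mean. Shh is the gene whose CCP1 cKO libraries (4.55 to 7.60 FPKM) all lie above its WT libraries (3.17 to 4.30 FPKM), and Gli1 and Hhip lie below the dotted line at 1 FPKM.

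Among the 10 genes, Shh was the single one whose genotypes did not overlap, and 9 overlapped. Over all tested loci, 9.8% did not overlap in either direction and 3.98% did so with CCP1 cKO higher. These counts describe genes that were chosen with this contrast in view, and nothing is read from them. The differences of the other 9 genes lay between -0.12 and 0.32 on the log2 scale, 3 of them above 0 and 6 below 0. All lay inside the range of -0.37 to 0.38 that held the central 95% of all tested loci. Gli1 and Hhip averaged under 1 FPKM and are not among the tested loci. Changes of genes with so few FPKM are understated on this scale, so nothing is read from their place inside the range.

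**Figure D2:**
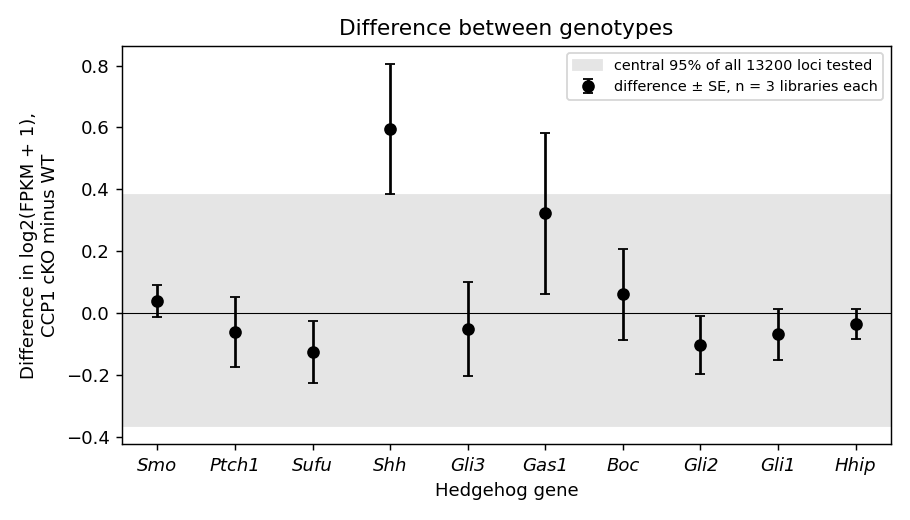
Difference of log2(FPKM + 1), CCP1 cKO minus WT, for each hedgehog gene with its standard error (n = 3 libraries each), the gray band holding the central 95% of the 13200 loci tested. Shh (0.59) lies outside the band, and the other 9 genes lie inside it, between -0.12 and 0.32. Gli1 and Hhip are not among the loci tested, and nothing is read from their place in the band.

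The Shh locus in the authors' table spans chr5:28456840-28719209 of mm10, much longer than the annotated gene. In GENCODE M21, Shh runs on the minus strand of chromosome 5 from 28456815 to 28467256 with 3 exons of 796, 262 and 1789 bp, and the table holds 1 isoform of it. The same span was given to 9530036O11Rik, an antisense transcript that overlaps exon 3 of Shh. This transcript had 0.170, 0.186 and 0.160 FPKM in CCP1 cKO libraries 1, 2 and 3, against 0.151, 0.0675 and 0.0665 FPKM in WT libraries 1, 2 and 3, so its genotypes did not overlap either. The kit kept the strand, but the sources used here do not say whether the counting used it, and fragments of both genes could then have been joined. The antisense transcript was 24.5 to 51.5 times lower than Shh in every library. Within 1 Mb of the Shh locus, 7 named loci were tested, and 0 of them differed at an adjusted or unadjusted p of 0.05 in limma. Over all loci the shares were 0.0909% and 4.62%, so nothing is read from a 0 among 7 loci. The neighbors Rbm33 on one side and Rnf32 and Lmbr1, the gene that houses the limb enhancer of Shh, on the other had overlapping genotypes, with Lmbr1 at 5.19, 4.93 and 4.43 FPKM in CCP1 cKO libraries 1, 2 and 3, against 5.09, 4.49 and 4.15 FPKM in WT libraries 1, 2 and 3.

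Shh made up nearly all of the hedgehog ligand RNA in the sorted pool. Dhh, the ligand known from Schwann cells and the testis, was at most 0.0878 FPKM in any library and Ihh, the ligand of growth plate cartilage, at most 0.167 FPKM. Shh accounted for 98.3%, 96.2% and 99.3% of the FPKM of the 3 ligand genes together in CCP1 cKO libraries 1, 2 and 3, against 96.8%, 94.9% and 94.7% in WT libraries 1, 2 and 3. Of the 11 genes of the ligand production list, Dhh and Ihh among them, 6 reached a mean of 1 FPKM. The 2 most abundant were Disp2, a relative of the SHH exporter DISP1, at a mean of 11.6 FPKM, and Scube3, of the family that carries SHH away from the cell, at 8.02 FPKM. Lower in the list, Hhat averaged 1.41 FPKM and Scube2, of the same family as Scube3, 0.158 FPKM, both named after their values were seen. Disp1 itself had 3.87, 4.41 and 4.0 FPKM in CCP1 cKO libraries 1, 2 and 3, against 3.82, 3.82 and 3.76 FPKM in WT libraries 1, 2 and 3, without overlap but with a difference of only 0.08 on the log2 scale.

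The receptor gene Ptch1 overlapped between genotypes. It encodes the SHH receptor, is a direct target of GLI factors and had 9.09, 8.53 and 10.2 FPKM in CCP1 cKO libraries 1, 2 and 3, against 9.65, 10.9 and 8.66 FPKM in WT libraries 1, 2 and 3. The genotypes were interleaved, with means of 9.28 ± 0.868 FPKM in CCP1 cKO, against 9.75 ± 1.15 FPKM in WT (SD, n = 3 each), and a difference of -0.06 (SE 0.11) on the log2 scale. The ratio of Shh to Ptch1 was accordingly 0.667, 0.533 and 0.743 in CCP1 cKO libraries 1, 2 and 3, against 0.446, 0.290 and 0.396 in WT libraries 1, 2 and 3. This ratio did not overlap, but it contains the Shh values by which the set was chosen.

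Smo, the transducer that PTCH1 holds in check, was the most abundant of the 10 genes and varied little. It had 17, 17.2 and 18.4 FPKM in CCP1 cKO libraries 1, 2 and 3, against 16.1, 17.7 and 17.5 FPKM in WT libraries 1, 2 and 3. The coefficient of variation within a genotype was 4.31% in CCP1 cKO, where Gli2 and Sufu varied less, and 5.12% in WT, where it was the lowest of the 10, and the difference was 0.04 (SE 0.05). The ratio of Ptch1 to Smo lay between 0.494 and 0.620 over the 6 libraries.

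The co-receptors that help PTCH1 bind SHH gave different pictures. Gas1, which encodes a lipid-anchored co-receptor, had 5.76, 4.62 and 3.43 FPKM in CCP1 cKO libraries 1, 2 and 3, against 4.73, 3.04 and 2.72 FPKM in WT libraries 1, 2 and 3. Its genotypes overlapped, replicate 1 was the highest in both, and the means were 4.60 ± 1.16 FPKM in CCP1 cKO, against 3.50 ± 1.08 FPKM in WT, a difference of 0.32 (SE 0.26). Boc, a co-receptor of the immunoglobulin family that also acts in axon guidance, had 2.84, 4.18 and 3.33 FPKM in CCP1 cKO libraries 1, 2 and 3, against 2.86, 3.63 and 3.25 FPKM in WT libraries 1, 2 and 3. Its difference of 0.06 (SE 0.15) was well within the spread between libraries. Hhip, a decoy that binds the ligand and is itself induced by the pathway, was close to the lower limit of the data, with 0.111, 0.119 and 0.141 FPKM in CCP1 cKO libraries 1, 2 and 3, against 0.143, 0.223 and 0.0925 FPKM in WT libraries 1, 2 and 3. At such values each library holds few fragments of the gene, and a change of Hhip was not detectable at this depth.

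The Gli factors were dominated by Gli3 in both genotypes. Gli3, the main repressor of the family, had 4.34, 5.23 and 4.52 FPKM in CCP1 cKO libraries 1, 2 and 3, against 4.95, 5.92 and 3.99 FPKM in WT libraries 1, 2 and 3. Gli2, the main activator, had 2.42, 2.48 and 2.37 FPKM in CCP1 cKO libraries 1, 2 and 3, against 2.62, 3.14 and 2.32 FPKM in WT libraries 1, 2 and 3. Both overlapped between genotypes, with differences of -0.05 (SE 0.15) for Gli3 and -0.10 (SE 0.09) for Gli2. Gli1, an activator whose own transcription is a standard readout of pathway activity, had 0.248, 0.408 and 0.467 FPKM in CCP1 cKO libraries 1, 2 and 3, against 0.528, 0.394 and 0.394 FPKM in WT libraries 1, 2 and 3. CCP1 cKO replicate 1 held the lowest and WT replicate 1 the highest value of Gli1, and the other 4 libraries lay between them.

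**Figure D3:**
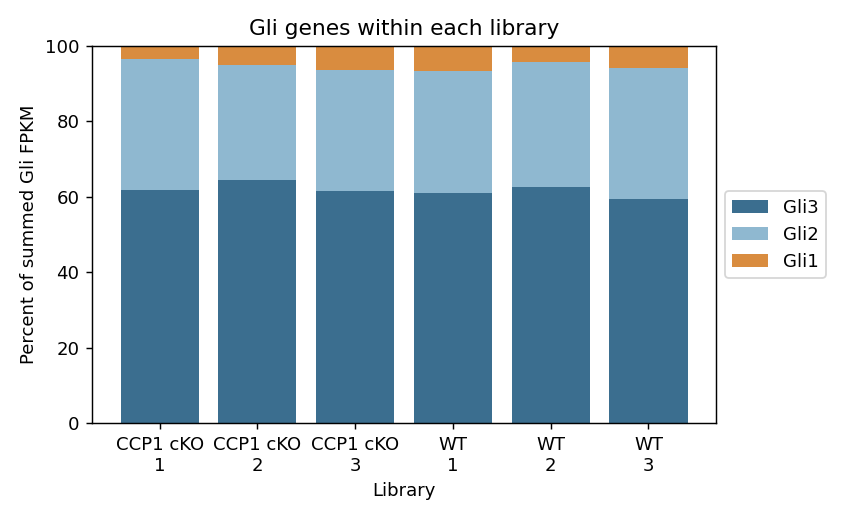
Share of Gli3, Gli2 and Gli1 in their summed FPKM, in percent, as 1 stacked bar per library with CCP1 cKO on the left. Gli3 makes up 59.5% to 64.4% and Gli1 3.54% to 6.52% in all 6 libraries.

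The share of Gli3 in the Gli FPKM was 62.6 ± 1.59% in CCP1 cKO and 61.1 ± 1.56% in WT (SD, n = 3 each). Gli1 made up 4.97 ± 1.40% in CCP1 cKO and 5.53 ± 1.22% in WT, and Gli2 the rest. The makeup of the family thus differed between genotypes by about as much as between libraries of 1 genotype. Sufu, which binds GLI proteins in the cytoplasm and holds them inactive, had 6.97, 6.60 and 6.74 FPKM in CCP1 cKO libraries 1, 2 and 3, against 6.64, 8.64 and 7.26 FPKM in WT libraries 1, 2 and 3. Its difference of -0.12 (SE 0.10) came mostly with WT replicate 2, the highest library, and without that library it was -0.03.

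Within libraries, the 10 genes kept much of their order. Over the 6 libraries the means were 17.3 FPKM for Smo, 9.52 FPKM for Ptch1, 7.14 FPKM for Sufu, 4.85 FPKM for Shh, 4.83 FPKM for Gli3, 4.05 FPKM for Gas1, 3.35 FPKM for Boc, 2.56 FPKM for Gli2, 0.407 FPKM for Gli1 and 0.138 FPKM for Hhip. Smo exceeded Ptch1, Ptch1 exceeded Sufu, Boc exceeded Gli2, Gli2 exceeded Gli1 and Gli1 exceeded Hhip in 6 of 6 libraries each. Each of these 5 steps had p = 0.031 in a two-sided exact sign-flip test, the smallest p that 6 libraries allow, and an adjusted p of 0.0562 over the 9 neighboring pairs, so none passed 0.05 after adjustment. The pairs were themselves taken from the order of the means in the same 6 libraries. Sufu exceeded Shh in 5 of 6 libraries (exact p = 0.0625, adjusted p = 0.0938), all but CCP1 cKO replicate 3. Shh and Gli3 could not be ordered over the 6 libraries, with a mean difference on the log2 scale of -0.03 (exact p = 0.875). Shh was higher in 2 of 6 libraries, CCP1 cKO replicates 1 and 3, and lower in each WT library, where the mean difference was -0.36, so that Shh ranked 4 of the 10 genes by mean FPKM in CCP1 cKO and 5 in WT. Both pairs with Shh pool the genotypes and contain the Shh values by which the set was chosen. Nothing is read from their p-values or from the change of rank. Gli3 and Gas1 (exact p = 0.188) and Gas1 and Boc (exact p = 0.406) did not differ beyond their spread. Among the 13200 tested loci Smo stood at the 66.7 percentile of mean FPKM, Ptch1 at the 49.1, Shh at the 32.6 and Gli2 at the 20.4 percentile.

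Ptch1 is the textbook target of GLI factors, and Gas1 is known to be held down by SHH signaling, so their start regions are shown. RefSeq windows of GRCm38.p6, from 250 bases before to 50 bases after the annotated start, were held for 7 of the 10 genes, and in the sequences below, given 5′ to 3′ on the strand of the gene, capitals mark each CG.
Ptch1, chr13:63565686-63565985, minus strand: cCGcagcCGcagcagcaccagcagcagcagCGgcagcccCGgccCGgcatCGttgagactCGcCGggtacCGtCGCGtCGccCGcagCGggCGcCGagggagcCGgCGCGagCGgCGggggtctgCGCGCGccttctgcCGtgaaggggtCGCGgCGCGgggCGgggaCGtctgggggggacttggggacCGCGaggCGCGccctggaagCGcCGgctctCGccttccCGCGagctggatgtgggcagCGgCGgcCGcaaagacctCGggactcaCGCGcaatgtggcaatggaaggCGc
Gas1, chr13:60177486-60177785, minus strand: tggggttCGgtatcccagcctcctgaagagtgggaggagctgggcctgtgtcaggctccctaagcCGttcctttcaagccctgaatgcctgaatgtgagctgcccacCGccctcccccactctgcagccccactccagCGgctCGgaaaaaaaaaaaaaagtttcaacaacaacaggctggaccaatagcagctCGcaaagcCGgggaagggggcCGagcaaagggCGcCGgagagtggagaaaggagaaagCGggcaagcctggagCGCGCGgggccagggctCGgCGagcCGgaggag

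Both windows are rich in CG, with 47 in Ptch1 and 17 in Gas1, against a median of 7 over 32851 windows of the same length, and the 7 hedgehog windows held 12 to 47. The GLI motif GACCACCCA, searched on both strands (TGGGTGGTC on the other), was in 0 of the 7 windows and in 83 of all windows (0.253%). These letters are thus not in these 300 bases, which says nothing about GLI sites elsewhere. In GENCODE M21 the Ptch1 gene extends upstream of its window to 63573598, and that stretch was not searched.

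Ptch1 and Gas1 lie on the chromosome of the deleted gene. Gas1 (chr13:60174405-60177535) is 0.617 Mb and Ptch1 (chr13:63507808-63567062) 3.95 Mb from Agtpbp1 (chr13:59448981-59557361), on its side of higher coordinates, while Gli3 (chr13:15463306-15730195) lies far off on the other side. The floxed allele was made in stem cells of another strain than the C57BL mice it was bred to, and the sources used here do not say how much of the surrounding chromosome of that strain the CCP1 cKO embryos carry. Whether linked sequence takes part in the Gas1 values was not tested. Among 68 named loci tested within 5 Mb of Agtpbp1, 0 passed an adjusted p of 0.05 in limma, which 0.0909% of all loci did. At an unadjusted p of 0.05, 2 were higher and 3 lower, against 2.08% and 2.54% of all loci. The median difference of the 68 was -0.03. Within 1 Mb, 6 named loci were tested. Against 4.62% of all loci, 1 of the 6 had an unadjusted p under 0.05. This was Golm1, a gene of a Golgi membrane protein, at 45.3, 48.3 and 45.0 FPKM in CCP1 cKO libraries 1, 2 and 3, against 54.4, 52.9 and 54.5 FPKM in WT libraries 1, 2 and 3 (adjusted p = 0.656 in limma). The nearest named neighbors, Naa35 and A230056J06Rik on the side of Gas1 and Ntrk2, the gene of the BDNF receptor, on the other, had no unadjusted p under 0.05 or, for A230056J06Rik, lay under 1 FPKM. Naa35, at 26.9, 27.6 and 27.0 FPKM in CCP1 cKO libraries 1, 2 and 3, against 28.1, 33.7 and 27.8 FPKM in WT libraries 1, 2 and 3, was lower in CCP1 cKO without overlap, as was A230056J06Rik, and Ntrk2 overlapped. Non-overlap with lower CCP1 cKO values thus held for 2 of the 6 loci tested within 1 Mb, Golm1 and Naa35, against 5.81% of all loci.

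**Figure D4:**
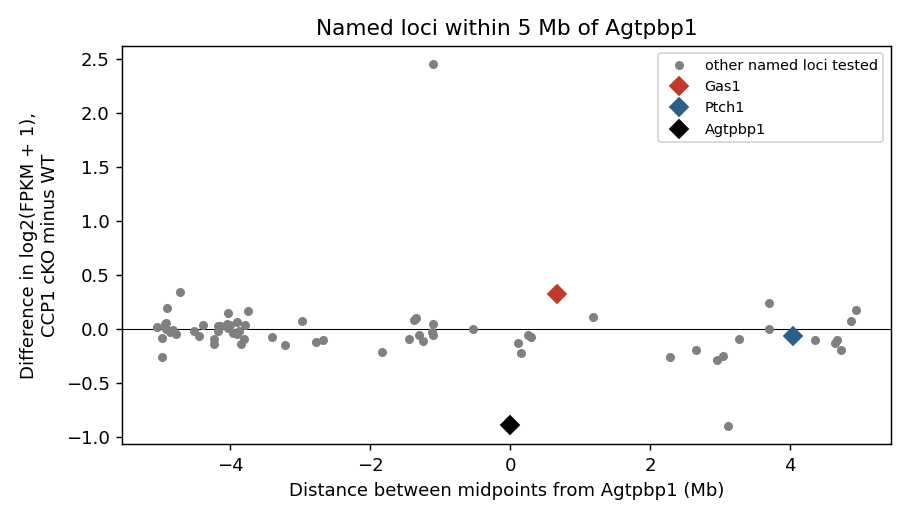
Difference of log2(FPKM + 1), CCP1 cKO minus WT, of named tested loci against the distance of their midpoint from that of Agtpbp1 in Mb, with Gas1 in red, Ptch1 in blue and Agtpbp1 in black. The 2 gray points far from 0 are Mir7-1 (2.46) and 6720489N17Rik (-0.90), and Gas1 (0.32) lies above most of its neighbors.

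Beyond the 10 genes, 5 lists of other pathway genes gave 0 calls at an adjusted p of 0.05, which few loci passed anywhere. Of 79 genes in ligand production, reception, signal relay, ciliary requirement and other targets, 78 were found and 62 tested. At an adjusted p of 0.05 in limma, 0 were higher and 0 lower, against 0.0606% and 0.0303% of all loci, so nothing is read from these 0. At an unadjusted p of 0.05, 1 was higher and 0 lower, against 2.08% and 2.54% of all loci. The median difference of the 62 was 0.01, beside -0.02 over all loci, and 6 of them were higher and 5 lower without overlap, against 3.98% and 5.81% of all loci. The gene with the unadjusted call was Tctn1, which encodes a protein of the ciliary transition zone, at 7.32, 9.06 and 8.51 FPKM in CCP1 cKO libraries 1, 2 and 3, against 6.86, 5.88 and 7.46 FPKM in WT libraries 1, 2 and 3 (adjusted p = 0.976 in limma). Its genotypes overlapped, because WT replicate 3 lay above CCP1 cKO replicate 1.

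In the reception list, with 12 genes tested, Gpr161, a ciliary receptor that restrains the pathway through cAMP, had 27.9, 29.3 and 29.4 FPKM in CCP1 cKO libraries 1, 2 and 3, against 25.1, 27.6 and 27.1 FPKM in WT libraries 1, 2 and 3. Its genotypes did not overlap, and the difference was 0.12. Mgrn1, a ubiquitin ligase that limits SMO at the cell surface, averaged 26.0 FPKM and had overlapping genotypes.

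In the relay list, Btrc, of a ubiquitin ligase that acts on GLI proteins, and the kinase gene Dyrk2 were higher and Tulp3, a regulator of ciliary traffic, lower in CCP1 cKO without overlap, with differences of 0.14, 0.06 and -0.17. These 3 were singled out after their values were seen. Gnas, the stimulatory G protein that opposes hedgehog signaling through cAMP, was the most abundant of all these lists at a mean of 375.9 FPKM. It was followed in the relay list by the kinase Csnk1e, which phosphorylates pathway proteins, at 160.6 FPKM. Of 23 relay genes, 0 had an unadjusted p under 0.05 in limma, against 4.62% of all loci. Of the 13 cilium genes, Kif3a, a motor of transport along the cilium, had a mean of 26.1 FPKM and Bbs4, of the complex that moves membrane proteins in the cilium, 13.3 FPKM. Both overlapped between genotypes, while Arl13b, a GTPase gene of the cilium, was higher (0.05) and Ift122, of the transport machinery, lower (-0.10) in CCP1 cKO without overlap, also named after their values were seen.

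Among 18 other targets, 9 reached a mean of 1 FPKM. Nkx2-1, the MGE factor that depends on SHH, had 77.4, 79.6 and 85.9 FPKM in CCP1 cKO libraries 1, 2 and 3, against 65.8, 88.2 and 81.0 FPKM in WT libraries 1, 2 and 3. Ccnd2, a cyclin of cycling progenitors, had 71.2, 82.7 and 61.9 FPKM in CCP1 cKO libraries 1, 2 and 3, against 65.4, 111.9 and 78.8 FPKM in WT libraries 1, 2 and 3. Both overlapped, and the targets of more ventral or mesenchymal tissue, Foxa2, Foxl1 and Hand2, were listed at 0 in all 6 libraries.

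The cells that could supply Shh were compared through their markers. Lhx8, a factor of MGE neurons that become cholinergic or stay in the ventral forebrain, had 80.4, 70.9 and 91.9 FPKM in CCP1 cKO libraries 1, 2 and 3, against 64.0, 55.7 and 68.8 FPKM in WT libraries 1, 2 and 3. The genotypes did not overlap, as for Shh, and in both genotypes replicate 2 was the lowest. The difference of Lhx8 was 0.36 with an unadjusted p of 0.019 and an adjusted p of 0.946 in limma, so it did not pass. Of the 8 MGE genes tested, Lhx8 was the single one with an unadjusted p under 0.05, which 4.62% of all loci had. Lhx6 had 97.9, 102.0 and 101.3 FPKM in CCP1 cKO libraries 1, 2 and 3, against 83.0, 102.9 and 115.2 FPKM in WT libraries 1, 2 and 3, with overlap, and the summed level of 9 MGE genes was 377.2 to 389.1 FPKM in CCP1 cKO, against 334.2 to 402.2 FPKM in WT. The ratio of Shh to Lhx8 was 0.0754, 0.0641 and 0.0828 in CCP1 cKO libraries 1, 2 and 3, against 0.0673, 0.0570 and 0.0498 in WT libraries 1, 2 and 3, and here the genotypes overlapped. This ratio too contains the Shh values by which the set was chosen, and nothing is read from its overlap. The part of the Lhx8 cells in the Shh values was not tested.

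**Figure D5:**
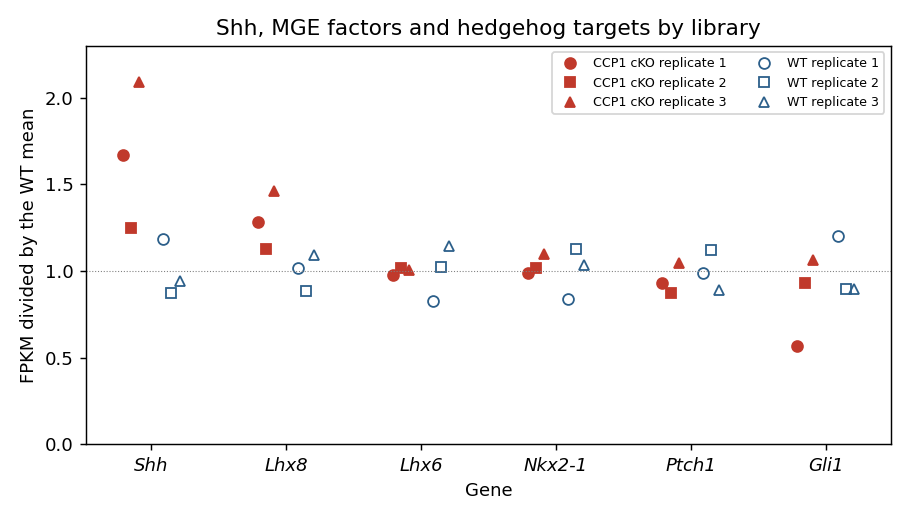
FPKM of each library divided by the WT mean of the gene, with filled red symbols for CCP1 cKO and open blue symbols for WT. CCP1 cKO libraries lie above WT libraries for Shh and Lhx8, and the genotypes overlap for Lhx6, Nkx2-1, Ptch1 and Gli1.

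Of the other places that make SHH in the embryo, the floor plate, the hypothalamus and the zona limitans left little RNA in the sorted cells. Of 8 floor plate and ventral midline genes, Foxa1, Foxa2 and Ferd3l were listed at 0 in all libraries, and the summed level of the list was 12.2 to 12.9 FPKM in CCP1 cKO, against 11.1 to 14.0 FPKM in WT, most of it from Ntn1, which other GE cells also express. Of 10 genes of the hypothalamus and the zona limitans, Rax and Nkx2-4 were among those listed at 0, and the sum was 1.49 to 1.92 FPKM in CCP1 cKO, against 0.985 to 2.74 FPKM in WT. The 7 genes of the preoptic list were not low as a sum, with 65.2 to 98.1 FPKM in CCP1 cKO, against 56.0 to 100.9 FPKM in WT. The highest of them, Zic1, averaged 47.6 FPKM. The part of preoptic cells in the Shh values was not tested. Endothelial genes moved between genotypes at a very low level. Their 8 genes summed to 0.508 to 0.782 FPKM in CCP1 cKO, against 1.10 to 1.85 FPKM in WT, and 5 of 8 were lower in CCP1 cKO without overlap, beside 4.28% of the loci under 1 FPKM that were not at 0 throughout, with Cldn5, a tight junction gene, at 0.159, 0.0525 and 0.175 FPKM in CCP1 cKO libraries 1, 2 and 3, against 0.659, 0.499 and 0.396 FPKM in WT libraries 1, 2 and 3. Whether these cells take part in any hedgehog value was not tested. Radial glia genes, 422 to 482.6 FPKM in CCP1 cKO, against 438.7 to 464.2 FPKM in WT, and cell cycle genes, 439.5 to 537.7 FPKM in CCP1 cKO, against 480.5 to 548.1 FPKM in WT, overlapped in their sums.

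Over the 6 libraries, the genes whose standardized profile lay nearest to that of Shh were Repin1, Acyp2, AI606473, Adrb1 and Lrrc42, with root mean square differences of 0.155, 0.160, 0.181, 0.194 and 0.204 among 11259 named loci. Acyp2, the gene of an acylphosphatase, had 1.56, 1.18 and 2.16 FPKM in CCP1 cKO libraries 1, 2 and 3, against 1.07, 0.854 and 0.953 FPKM in WT libraries 1, 2 and 3. Like Shh, it was highest in CCP1 cKO replicate 3 and lowest in WT replicate 2. Adrb1, the beta-1 adrenergic receptor gene, had 1.18, 1.08 and 1.40 FPKM in CCP1 cKO libraries 1, 2 and 3, against 0.915, 0.794 and 0.878 FPKM in WT libraries 1, 2 and 3. Lhx8 stood at rank 32 (0.349). The hedgehog genes of the set were farther off, from Gas1 at rank 1932 (0.961) to Sufu at rank 9213 (1.63), and Ptch1 stood at rank 4716 (1.28). With 6 libraries of 2 genotypes these distances describe the libraries only.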

How the data were processed

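RNA of GFP-sorted GE cells was measured in 3 CCP1 cKO and 3 WT libraries, grouped by the genotype in the labels. The authors aligned reads with Bowtie2 to mm10 and obtained FPKM per locus and library with Cuffdiff. The annotation, the strand setting and the versions were not given in the sources used here. Deposited FPKM entered the analysis as they are. The deposited isoform values are authors' means per genotype, and only the isoforms of each gene were counted. Fold changes, p-values and q-values of the authors' own comparison stand in the tables and were not used.

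Columns were joined to samples by name. Genes were found by symbol, taking the longest locus. Of 214 genes in 22 lists besides the set, 205 were found and 7 left out because their locus carries another gene. Loci averaging at least 1 FPKM were compared on log2(FPKM + 1) with limma 3.58.1 in R 4.3.3 (lmFit, eBayes with a trend, Benjamini-Hochberg, threshold 0.05), after the procedure was tested on simulated data. Levels within libraries were compared with exact sign-flip tests. Likeness to Shh was the root mean square difference of standardized profiles. Other steps ran in Python 3.11.15 with NumPy 2.4.6, pandas 2.3.3 and SciPy 1.17.1, and plots in Matplotlib 3.10.9.

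The members and lists were chosen with earlier results of these data known. Named were the 10 genes, Agtpbp1, Dhh and Ihh, the 2 most abundant genes of each pathway list, Lhx6, Lhx8 and Nkx2-1, the highest gene of each marker list, listed genes with an unadjusted p under 0.05, the 5 loci nearest to Shh in profile and the nearest neighbors of Shh and Agtpbp1. Alternatives were other pseudocounts (0.1, 0.5), other filters (none, or a mean of 5 FPKM), equal medians, quantile normalization, TPM, a block by replicate number, library weights, a fit without trend, loci with a single name and leaving out each library. Total counts are not in the tables, so depth is known only in relative terms and no counting interval is given. Some listed genes are not reported here by name.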

Additional observations from a re-analysis of the deposited data

How the results depend on the processing

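The Shh difference lay between 0.44 and 0.76 on the log2 scale under the 14 alternatives run for it. With the replicate number as a block it was 0.59. Shh was chosen for being higher in CCP1 cKO, and its genotypes do not overlap. Leaving out a library or changing the pseudocount could therefore not turn its sign, and nothing is read from it. At a mean of 4.85 FPKM, Shh did not pass the filter of 5 FPKM. The number of loci past an adjusted p of 0.05 was 12, and it was 28 after rescaling to TPM, 24 with library weights, 1 among single-name loci and 4 to 16 when 1 library was left out, the 4 without CCP1 cKO replicate 3. With the replicate block it was 16. Deviations from the genotype means correlated at 0.32, 0.11 and 0.04 between libraries of the same number. Between libraries of different numbers they correlated at -0.26 to 0.17. These values do not settle whether the numbers pair the libraries, and a shared effect of the replicate number was not tested. The order of Shh and Gli3 turned to 0.028 FPKM on the linear scale and to 0.11 on the log2 scale without WT replicate 2, where it had been -0.03, and the cause was not tested. The number of ordered pairs past an adjusted p of 0.05 was 0 throughout. The smallest p of the exact sign-flip test is 0.0625 with 5 libraries and 0.25 with the 3 WT libraries. No pair could therefore pass in those alternatives, and nothing is read from their 0. The number of other pathway genes past an adjusted p of 0.05 in limma was also 0 throughout, and 0 to 3 of them had an unadjusted p under 0.05. In the main fit the shares over all loci were 0.0909% and 4.62%. Leaving out 1 library moved Ptch1 between -0.14 and 0.02, Gli3 between -0.17 and 0.06, Boc between -0.05 and 0.16 and Smo between -0.0023 and 0.062, so these 4 have no stable sign, while Gas1 stayed between 0.18 and 0.51. Values below 1 FPKM, among them Gli1 and Hhip, rest on few fragments.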

Other observations

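Of 64 genes tested in the marker lists other than that of the MGE and in no pathway list, 2 had an unadjusted p under 0.05 in limma (4.62% of all loci), and neither passed after adjustment (adjusted p = 0.976 for both). Bcl11b, a factor of striatal projection neurons, had 77.4, 79.0 and 76.4 FPKM in CCP1 cKO libraries 1, 2 and 3, against 81.4, 93.0 and 88.8 FPKM in WT libraries 1, 2 and 3. Nr2f1, a factor of the caudal ganglionic eminence, had 82.0, 69.9 and 74.3 FPKM in CCP1 cKO libraries 1, 2 and 3, against 88.2, 96.7 and 82.1 FPKM in WT libraries 1, 2 and 3. Both lay lower in CCP1 cKO without overlap.

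The preoptic gene Zic1 had 63.6, 38.8 and 50.1 FPKM in CCP1 cKO libraries 1, 2 and 3, against 65.0, 29.9 and 38.0 FPKM in WT libraries 1, 2 and 3, so it was highest in replicate 1 of both genotypes and lowest in replicate 2. The most abundant genes of the remaining lists overlapped between genotypes. Their means over the 6 libraries were 103.1 FPKM for Meis2 of the lateral eminence, 173.3 FPKM for the radial glia gene Vim, 149.7 FPKM for the cell cycle gene Top2a, 1194 FPKM for the neuronal tubulin Tubb3, 12.4 FPKM for Olig2 of oligodendrocyte precursors, 6.94 FPKM for Neurod6 of cortical excitatory neurons, 11.6 FPKM for the embryonic globin Hbb-y, 1.58 FPKM for Col1a2 of the meninges and 1.08 FPKM for Barhl2 of the hypothalamus. The pericyte gene Pdgfrb had 0.643 FPKM and the microglial gene C1qb 0.194 FPKM.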
